A study of Mus musculus with 8 samples.

Results

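Transcripts of DNA replication genes were measured in dissected mouse atrioventricular canals, where the heart's endocardial cushions arise. The list of 44 genes covers the proteins that load, open and copy replication origins, together with the enzymes that supply deoxynucleotides. Members were chosen by gene name, with earlier results of these data known. All 44 had probe sets that carry a single gene symbol, out of 18193 genes with such a probe set on the array. The 44 genes had 99 such probe sets, and 91 of them were bright enough to be tested. The brightest probe set stands for each gene, and further probe sets show how far a gene's readings match.

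The 4 mutant pools came from Gata4flox/flox; T2Cre+ mice, called Gata4T2del, and the 4 control pools from Gata4flox/flox mice. T2Cre is Cre recombinase driven by the Tie2 promoter, and removes Gata4, a zinc finger transcription factor, from endothelial cells and from cushion mesenchyme, their descendants. Floxed alleles and a mixed C57BL6/129 background were common to all pools, while only the mutant label names Cre, so that an effect of Cre itself and one of Gata4 loss cannot be told apart. Each pool held 10 dissected canals, an age is not given in the labels, and 50 ng of total RNA was amplified for each array.

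A replication origin is licensed when the origin recognition complex, Cdc6 and Cdt1 load the ring of Mcm proteins on DNA. Cdc45 and the GINS proteins turn that ring into the active helicase, primase and DNA polymerases copy the strands, and a sliding clamp of Pcna, placed by the Rfc clamp loader, holds the polymerases on DNA. Transcripts of many of these genes rise as cells enter S phase, under transcription factors of the E2F family. In the cushions, growth of the mesenchyme after its formation depends on proliferation.

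Promoters of 36 of the 44 genes, Rfc2 not among them, were in the RefSeq table of build GRCm38.p6. They are shown because E2F control is the textbook feature that these genes share. The letters searched on both strands of the 250 bases before each start were TTTCCCGC, TTTCCCGG, TTTCGCGC, TTTCGCGG, TTTGCCGC, TTTGCCGG, TTTGGCGC and TTTGGCGG. At least 1 of these words was found for 10 of the 36 genes (27.8%), against 4.2% of 27025 genes in the table. The letters GATA, preceded by A or T and followed by A or G, were found on either strand for 5 of the 36 genes (13.9%), against 29.7% of all genes. The sequences below are the 160 bases before the start of Mcm6 and Mcm5, helicase subunits, of Cdc6, the origin loader, and of Pold1, the catalytic subunit of polymerase delta. Capitals mark the E2F words, which overlap in Mcm6 and in Mcm5.
Mcm6, chr1:128359706-128359865, minus strand: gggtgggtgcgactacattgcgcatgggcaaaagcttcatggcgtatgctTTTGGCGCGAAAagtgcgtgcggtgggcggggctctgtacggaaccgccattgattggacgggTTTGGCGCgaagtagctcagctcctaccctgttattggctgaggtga
Mcm5, chr8:75109349-75109508, plus strand: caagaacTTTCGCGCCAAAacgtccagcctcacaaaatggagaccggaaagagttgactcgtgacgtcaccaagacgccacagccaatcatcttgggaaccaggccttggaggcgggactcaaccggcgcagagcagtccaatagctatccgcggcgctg
Cdc6, chr11:98907991-98908150, plus strand: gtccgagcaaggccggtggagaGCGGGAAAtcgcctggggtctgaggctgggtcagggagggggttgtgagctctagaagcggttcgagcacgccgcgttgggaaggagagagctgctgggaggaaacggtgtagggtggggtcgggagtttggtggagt
Pold1, chr7:44548816-44548975, minus strand: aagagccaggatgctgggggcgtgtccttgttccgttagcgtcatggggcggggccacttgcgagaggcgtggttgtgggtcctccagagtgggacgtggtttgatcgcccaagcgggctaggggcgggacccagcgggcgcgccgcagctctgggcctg
Of the 4 stretches shown, only that of Pold1 held none of the E2F words. Among genes with an E2F word, 8 of 10 had a positive change in mutant pools and the median log2 change was 0.06. Among the 26 genes without one, 14 had a positive change and the median was 0.03. With the GATA letters, 4 of 5 genes had a positive change (median 0.06), and without them 18 of 31 (median 0.03). None of these differences was tested. A match describes letters in this window and was not tested as a binding site.

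The arrays were of unequal quality, which bears on every value that follows. Background, read as the median signal of 27 bacterial control probe sets, was 4.0 to 26.0 on mutant arrays, 39.3 and 19.4 on controls 1 and 4, and 158 and 135 on controls 2 and 3. In the limma fit, which compared all 27022 tested probe sets on the log2(signal + 16) scale after quantile normalization, controls 2 and 3 received weights of 0.302 and 0.35. The mutant arrays had weights of 0.888 to 2.80 and controls 1 and 4 of 1.36 and 0.867. Markers of the labelled tissue were present: all 6 cardiomyocyte and all 6 cushion mesenchyme markers were above background on all 8 arrays, as were 4 of 6 endothelial markers. No pool was labelled as a separate litter or day, so p values measure the spread between these pools.

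Of the 44 DNA replication genes, 1, the clamp loader subunit Rfc2, passed the test as higher in the mutants (Benjamini-Hochberg adjusted p under 0.05 over all tested probe sets). No member passed as lower in this limma fit, where 2 members had an unadjusted p under 0.05 in each direction. Over all 12070 genes tested on their brightest probe set, 0.0414% passed as higher, 0.0249% as lower and 0.0663% in either direction. Over all 27022 probe sets these shares were 0.0259%, 0.0185% and 0.0444%. The share of members with an unadjusted p under 0.05 was 9.09%, against 12.9% of all genes, of which 7.3% were higher and 5.63% lower. Positive changes were found for 29 of the 44 members (65.9%), against 53.2% of all genes, with a median log2 change of 0.07, against 0.02. The members' changes ran from -0.65 to 1.27.

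Intervals of the members were compared with those of all genes. The 95% interval of the change lay within a 1.5-fold difference in either direction for 30 of 44 members, against 42.8% of all genes, and within a 2-fold difference for 39, against 68.7%. Members varied little among pools, with a median SD over the 4 arrays of 0.14 in mutants and 0.23 in controls. For all genes these values were 0.21 and 0.37. The brightest probe set was above background on all 8 arrays for 35 of 44 members, against 7755 of 18193 genes, of which 12070 were tested. The part of signal level in these SDs and intervals was not tested. The 9 other members were Orc1, Cdc6, Cdc45, Pola2, Pold1, Pold2, Pole, Rfc3 and Tyms, and each was above background on at least 2 arrays of either group.

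**Figure D1:**
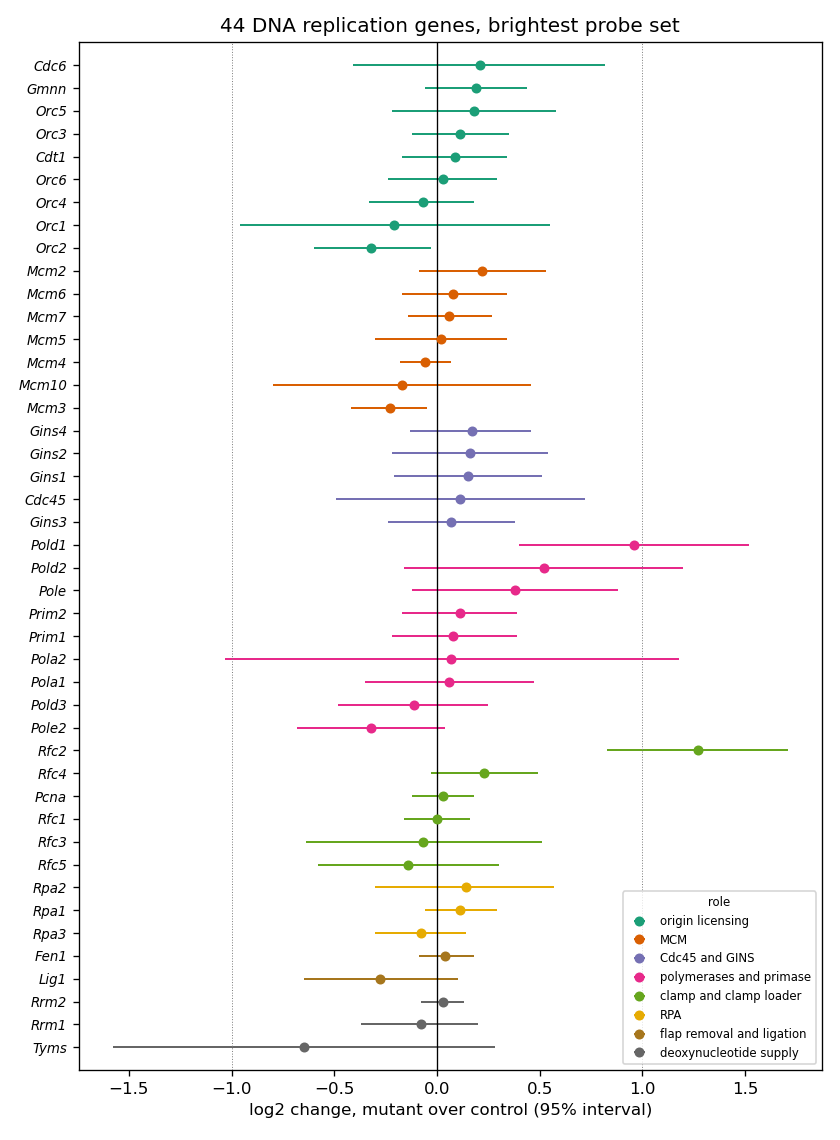
Log2 change of each of the 44 replication genes on its brightest probe set (x axis, mutant over control, with 95% intervals as lines), grouped and coloured by role and with dotted lines at a 2-fold difference. Rfc2 lies at 1.27 and Pold1 at 0.96, while the intervals of 39 members stay within the dotted lines.

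Averaged over the 44 members, each gene centred on its mean over the 8 arrays, log2 levels were -0.02, 0.11, 0.07 and 0.09 in mutants 1 to 4, against 0.05, -0.16, -0.17 and 0.04 in controls 1 to 4. The lower values were those of controls 2 and 3, and mutant 1 lay below controls 1 and 4. Control 2 or 3 held the lowest of the 8 values for 24 of 44 members (54.5%), against 45.8% of all genes, and the highest for 13 (29.5%), against 37.5%. Without controls 2 and 3, 26 of 44 members had positive changes, the median change was 0.02 and 0 members passed (adjusted p = 0.126 for Rfc2 in a plain limma fit). Without control 2 alone, 24 of 44 members had positive changes.

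**Figure D2:**
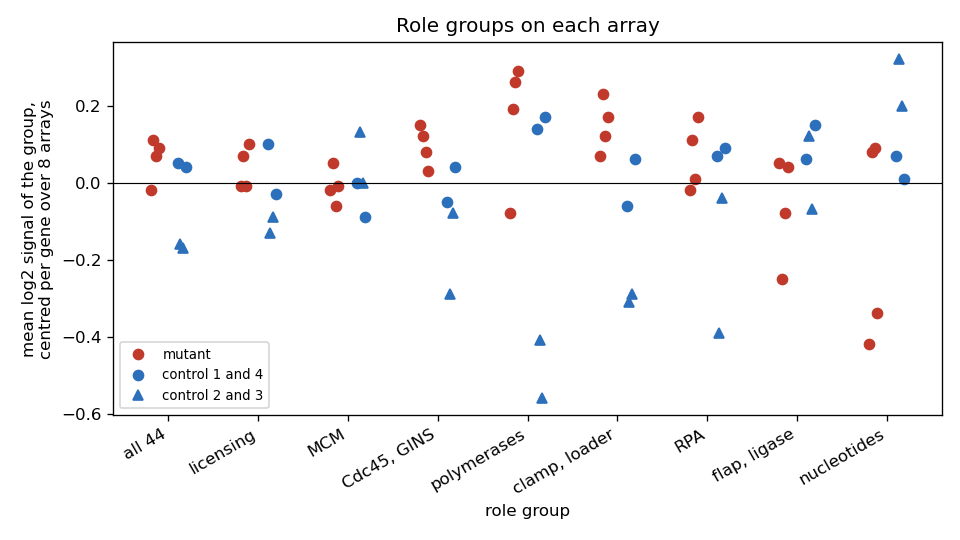
Mean log2 level of all 44 members and of each role group on each array (y axis, centred per gene over the 8 arrays), with circles for mutants and for controls 1 and 4 and triangles for controls 2 and 3. For all 44 members the mutants span -0.02 to 0.11 and the controls -0.17 to 0.05, with the triangles lowest.

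Among the genes of origin licensing, 6 of 9 had positive changes, none passed, and the median was 0.09. Orc2, a subunit of the origin recognition complex, had the smallest p of the group, with log2 values of 10.45, 10.63, 10.18 and 10.51 in mutants 1 to 4, against 10.83, 10.61, 10.47 and 10.64 in controls 1 to 4. Its groups overlapped, and the change was -0.32 (SE 0.13, 95% interval -0.60 to -0.03, adjusted p = 0.362). The other 2 Orc2 probe sets had changes of -0.29 and -0.55, so that its 3 probe sets leaned one way without passing. Geminin, Gmnn, which holds Cdt1 inactive after origins have fired, had values of 10.41, 10.74, 10.59 and 10.60 in mutants, against 10.37, 10.30, 10.76 and 10.29 in controls. Mutant values lay among those of the controls, for a change of 0.19 (SE 0.12, adjusted p = 0.511). Orc3, another origin recognition subunit, had 10.62, 10.43, 10.56 and 10.46 in mutants, against 10.42, 10.23, 10.50 and 10.41 in controls, for a change of 0.11 (SE 0.11, adjusted p = 0.696). The other Orc3 probe sets had changes of -0.40 and 0.23, so its sign was not shared among probe sets. The remaining licensing genes had changes of 0.21 for Cdc6, 0.18 for Orc5, 0.09 for Cdt1, 0.03 for Orc6, -0.07 for Orc4 and -0.21 for Orc1. Orc1 and Cdc6 varied far more among controls than among mutants, with SDs of 0.27 and 0.28 in mutants and 0.89 and 0.93 in controls.

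The 7 Mcm genes, most of whose products form the helicase ring, had changes between -0.23 and 0.22, 4 of them positive, and none passed the threshold. Mcm3 had values of 11.34, 11.54, 11.40 and 11.45 in mutants 1 to 4, against 11.76, 11.77, 11.53 and 11.50 in controls 1 to 4. Mutant 2 lay above controls 3 and 4, so the groups overlapped, and the change was -0.23 (SE 0.09, 95% interval -0.42 to -0.05, adjusted p = 0.330). On its 4 other probe sets, changes were -0.16, 0.00, -0.11 and -0.02. Mcm2 had 10.54, 10.38, 10.45 and 10.72 in mutants, against 10.54, 10.37, 9.66 and 10.23 in controls, for a change of 0.22 (SE 0.15, adjusted p = 0.537). The low value was that of control 3, and the second Mcm2 probe set had a change of 0.07. Mcm4 had 13.00, 13.12, 12.97 and 13.11 in mutants, against 13.14, 13.14, 12.98 and 13.07 in controls. Its groups overlapped closely, and its change was -0.06 (95% interval -0.18 to 0.07, adjusted p = 0.699). Mcm6, Mcm7 and Mcm5 had changes of 0.08, 0.06 and 0.02. Mcm10, a separate factor needed to start unwinding, had a change of -0.17 (SE 0.30), with SDs of 0.26 in mutants and 0.92 in controls.

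All 5 genes of the Cdc45 and GINS group had small positive changes, between 0.07 and 0.17, and none passed. Gins4 had values of 9.64, 9.80, 9.81 and 9.88 in mutants 1 to 4, against 9.52, 9.92, 9.70 and 9.69 in controls 1 to 4. The highest of its 8 values was that of control 2, and the change was 0.17 (SE 0.14, adjusted p = 0.642). Gins2 had 9.23, 9.21, 8.93 and 9.06 in mutants, against 9.02, 8.66, 8.96 and 8.76 in controls, for a change of 0.16 (SE 0.18, adjusted p = 0.733). Mutant 3 lay below controls 1 and 3. Gins1, Cdc45 and Gins3 had changes of 0.15, 0.11 and 0.07. Averaged over the 5 genes, the mutants spanned 0.03 to 0.15 and the controls -0.29 to 0.04, with control 2 lowest.

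Genes of the polymerases and primase differed among themselves, with 7 of 9 positive changes, a median of 0.08 and a range from -0.32 to 0.96. On its brightest probe set Pold1 had values of 9.31, 9.65, 9.46 and 9.38 in mutants 1 to 4, against 8.87, 7.78, 6.90 and 8.70 in controls 1 to 4. Every mutant lay above every control, yet Pold1 did not pass, with a change of 0.96 (SE 0.26, 95% interval 0.40 to 1.52, adjusted p = 0.225). With Rfc2, Pold1 was 1 of 2 members (4.55%) whose groups did not overlap with the mutants above, against 4.97% of all genes, and no member's groups did so on the brightest probe set with the mutants below, against 3.19%. In either direction the share of all genes was 8.16%. The lowest Pold1 values were those of controls 3 and 2, and without these arrays the change was 0.73 (adjusted p = 0.427). The second Pold1 probe set pointed the other way, with 7.18, 7.15, 6.99 and 6.69 in mutants, against 7.94, 7.51, 8.49 and 6.60 in controls, for a change of -0.62 (SE 0.37, adjusted p = 0.485). The direction of Pold1 therefore depended on the probe set. Without control 1, Pold1 passed with a change of 1.91 (adjusted p = 0.0154), and without control 4 with 1.69 (adjusted p = 0.0175). These 2 settings leave controls 2 and 3 as most of the control group. The counts of passing probe sets over the whole array were also largest without controls 1 and 4.

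Pold2, a small subunit of polymerase delta, showed the same split among controls. Its values were 7.98, 8.24, 8.15 and 8.31 in mutants, against 7.97, 6.70, 6.27 and 8.09 in controls, for a change of 0.52 (SE 0.32, adjusted p = 0.504). Controls 1 and 4 lay close to the mutants, controls 2 and 3 were lower, and 2 of 4 control arrays were above background. Pold2 had 1 probe set, and with single arrays left out it passed without control 1 (change 1.44, adjusted p = 0.0423) and not otherwise. Pole, the catalytic subunit of polymerase epsilon, had 8.57, 8.28, 8.70 and 8.66 in mutants, against 8.26, 7.34, 8.16 and 8.53 in controls, for a change of 0.38 (SE 0.24, adjusted p = 0.508). Its partner Pole2 had 8.98, 9.42, 8.96 and 8.98 in mutants, against 9.22, 9.52, 9.56 and 9.38 in controls, for a change of -0.32 (SE 0.17, adjusted p = 0.446). Mutant 2 alone lay among the Pole2 controls, while the other 3 mutants were below all of them. The remaining genes had changes of 0.11 for Prim2 and 0.08 for Prim1, which make the RNA primer, 0.07 and 0.06 for the polymerase alpha subunits Pola2 and Pola1, and -0.11 for Pold3. Pola2 was the least certain, with a 95% interval from -1.03 to 1.18.

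Rfc2 stood apart within the clamp and clamp loader group. On its brightest probe set it had log2 values of 9.37, 9.83, 9.95 and 10.10 in mutants 1 to 4, against 8.72, 7.98, 8.37 and 8.78 in controls 1 to 4. Every mutant lay above every control. The means were 9.81 ± 0.32 in mutants and 8.46 ± 0.37 in controls (SD, n = 4 each), and the fitted change was 1.27 (SE 0.21, 95% interval 0.83 to 1.71, limma adjusted p = 0.0272), a 2.42-fold difference. Probe sets of this class may share sequence with transcripts of other genes. The second probe set, of a type designed for a single gene, had 9.23, 9.54, 9.48 and 9.39 in mutants, against 8.52, 7.77, 8.74 and 9.41 in controls. Control 4 lay among the mutants there, and the change was 0.68 (SE 0.22, adjusted p = 0.280). The third had 8.02, 8.67, 8.36 and 8.26 in mutants, against 8.58, 7.67, 6.42 and 7.88 in controls, with overlap and a change of 0.29 (SE 0.32, adjusted p = 0.720). All 3 probe sets thus had positive changes of different size. In controls alone the second probe set was brighter than the first, with a mean of 8.61 against 8.46. The mutant values thus made the first the brightest, and the call rests on that pick.

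The Rfc2 change stayed between 1.13 and 1.55 on the brightest probe set with any single array left out. The call was lost without mutant 4 (limma adjusted p = 0.126), without mutant 3 (0.0541), without array weights (0.0608) and with an RNA integrity covariate (0.104). It was also lost with the 3 probe sets averaged, where the change was 0.74 (0.150), and without controls 2 and 3 (0.126). The second probe set, the brightest of unshared sequence, did not pass either (0.280). The covariate was the mean of the 3 prime to 5 prime log2 ratios of Actb and Gapdh, a measure of RNA integrity. The Actb ratio was 1.51, 1.31, 1.47 and 1.45 in mutants and 1.31, 1.29, 1.14 and 1.4 in controls. For Gapdh it was 0.42, 0.31, 0.40 and 0.38 in mutants and 0.48, 0.37, 0.41 and 0.36 in controls. The part of RNA integrity in the result was read only through that covariate. In whole canals a change in the share of a cell type and a change in RNA per cell cannot be told apart.

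**Figure D3:**
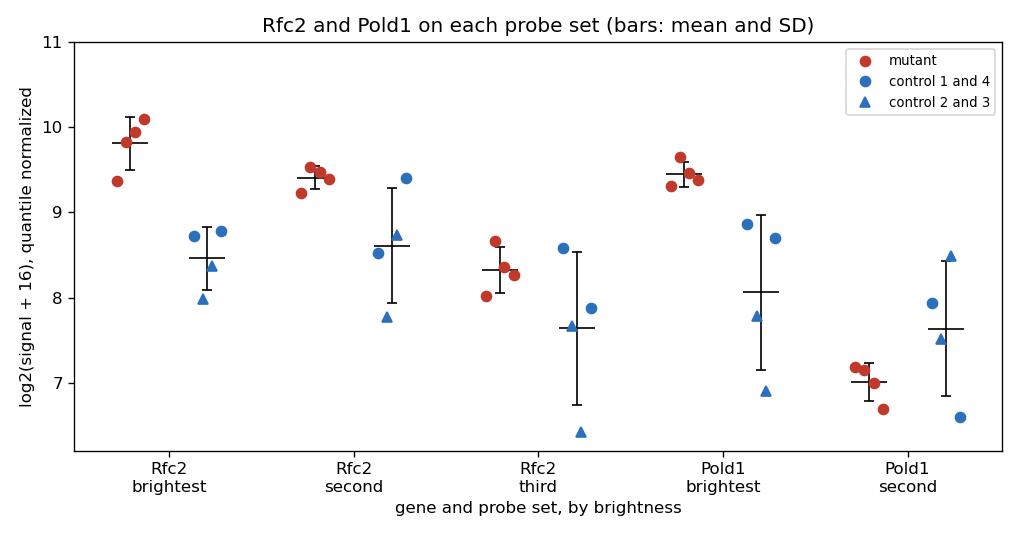
Log2(signal + 16) of Rfc2 on its 3 probe sets and of Pold1 on its 2 probe sets (y axis), with 1 point per array, mutants left of controls, and black bars for the mean and SD of 4 arrays. Triangles mark controls 2 and 3; the groups are apart on the brightest probe set of either gene, and Pold1 points the other way on its second.

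None of the other 5 genes of the group passed. Rfc4, another small loader subunit, had 10.40, 10.68, 10.64 and 10.61 in mutants, against 10.43, 10.08, 10.03 and 10.50 in controls, for a change of 0.23 (SE 0.12, adjusted p = 0.452). Its second probe set also had a change of 0.23 (SE 0.12, adjusted p = 0.435), and on both the lower controls were controls 2 and 3. Rfc1, the large subunit, had a change of 0.00 on its brightest probe set, with a 95% interval from -0.16 to 0.16. Its second probe set, above background on all 8 arrays, had 9.0, 9.06, 9.37 and 9.26 in mutants, against 8.68, 7.79, 7.79 and 9.22 in controls, for a change of 0.59 (95% interval 0.08 to 1.10, adjusted p = 0.350). Controls 2 and 3 were lowest there, control 4 lay among the mutants, and the third Rfc1 probe set had a change of 0.35 (SE 0.37, adjusted p = 0.717). Rfc3 and Rfc5 had changes of -0.07 and -0.14 on their brightest probe sets. The clamp Pcna had a change of 0.03, with a 95% interval from -0.12 to 0.18, and its 8 values spanned 12.14 to 12.26 in mutants and 12.09 to 12.37 in controls. The difference between Rfc2 and its partners was not itself tested.

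**Figure D4:**
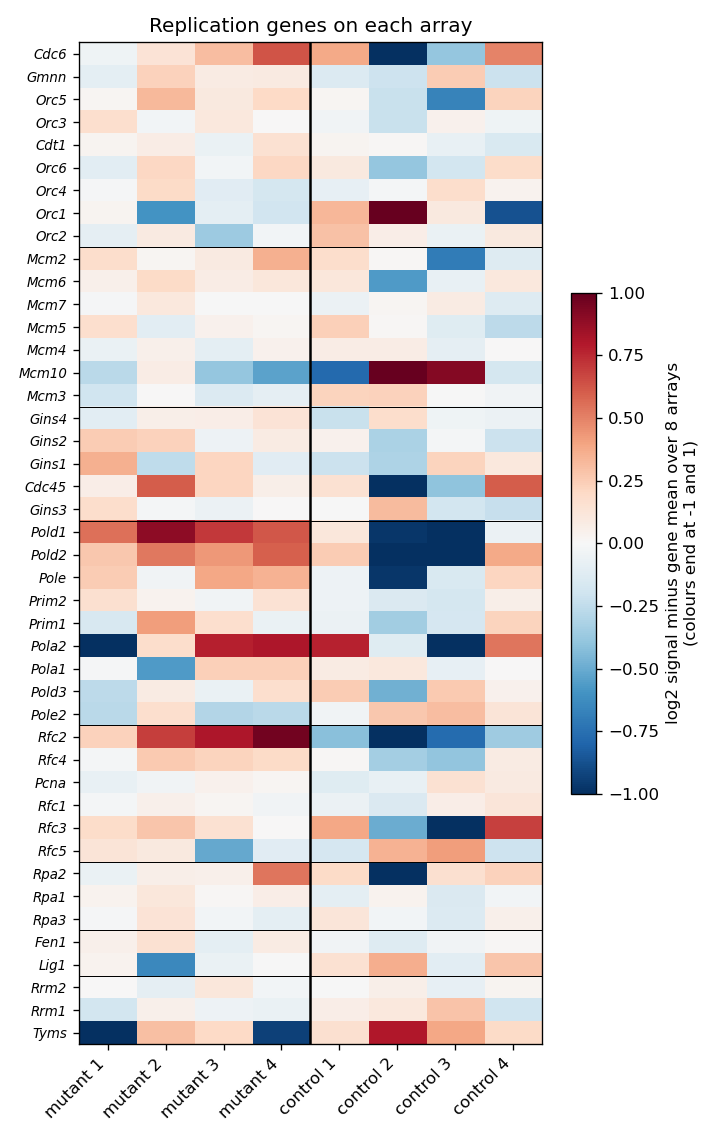
Log2 level of each of the 44 members (rows, by role) on each array (columns, mutants left of controls), as the difference from the gene's mean over the 8 arrays, with colours ending at -1 and 1. Most rows are pale, Rfc2 is raised in all 4 mutants, and Pold1 and Pold2 are dark blue on controls 2 and 3.

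The single-strand binding proteins of the RPA complex showed no member past the threshold. Rpa1 had 11.40, 11.48, 11.38 and 11.43 in mutants 1 to 4, against 11.27, 11.40, 11.22 and 11.34 in controls 1 to 4, for a change of 0.11 (SE 0.08, adjusted p = 0.589). Control 2 matched mutant 1, and the other controls lay below all mutants. Rpa3 had 10.71, 10.86, 10.69 and 10.62 in mutants, against 10.84, 10.69, 10.58 and 10.77 in controls, for a change of -0.08 (SE 0.11, adjusted p = 0.781). Rpa2 had a change of 0.14, with SDs of 0.26 in mutants and 0.68 in controls, where control 2 was low.

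For the enzymes that finish the lagging strand, Fen1, which trims the flap, had 13.09, 13.19, 12.94 and 13.12 in mutants, against 13.00, 12.91, 13.00 and 13.05 in controls. Its change was 0.04 (SE 0.07, 95% interval -0.09 to 0.18, adjusted p = 0.808). Lig1, the ligase that seals the nick, had 9.46, 8.78, 9.36 and 9.42 in mutants, against 9.58, 9.79, 9.32 and 9.70 in controls, for a change of -0.28 (SE 0.18, adjusted p = 0.522). The low Lig1 value was that of mutant 2, and the other mutants lay near the lowest control.

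None of the 3 genes of deoxynucleotide supply passed. Rrm2, the small subunit of ribonucleotide reductase, had a change of 0.03 with a 95% interval from -0.08 to 0.13. Rrm1, the large subunit, had 9.78, 10.02, 9.92 and 9.90 in mutants, against 10.03, 10.07, 10.25 and 9.77 in controls, for a change of -0.08 (SE 0.13, adjusted p = 0.821). On the second Rrm1 probe set every mutant was below every control, with 9.06, 8.93, 8.96 and 8.86 in mutants, against 9.20, 9.33, 9.28 and 9.45 in controls, but the change of -0.36 (SE 0.17) did not pass (adjusted p = 0.386). Tyms, thymidylate synthase, had 5.93, 7.32, 7.22 and 6.09 in mutants, against 7.18, 7.82, 7.41 and 7.21 in controls. It was above background on 2 of 4 mutant and on 4 control arrays, and its change of -0.65 (SE 0.44, 95% interval -1.58 to 0.28, adjusted p = 0.550) was the lowest of the list. Its other tested probe sets had changes of -0.24 and 0.43.

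Different probe sets of a gene often gave different directions. Of the 30 members with 2 or more tested probe sets, 17 had changes of 1 sign on all of them and 13 did not. Of 32 further probe sets that were above background on all 8 arrays, 22 had the sign of the gene's brightest probe set, and of 15 that were above background on fewer arrays, 9 did. Beside the Pold1, Tyms and Rfc2 probe sets given above, the probe sets farthest from the gene's brightest, chosen after their values were seen, were the third of Mcm6 with -1.56 (SE 0.53, adjusted p = 0.284), the second of Gins1 with 1.01 (SE 0.60, adjusted p = 0.491) and the second of Rfc3 with 0.80 (SE 0.45, adjusted p = 0.471). These last 3 were above background on 3, 1 and 2 control arrays, the second Pold1 probe set on all 8 arrays, and none passed.

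**Figure D5:**
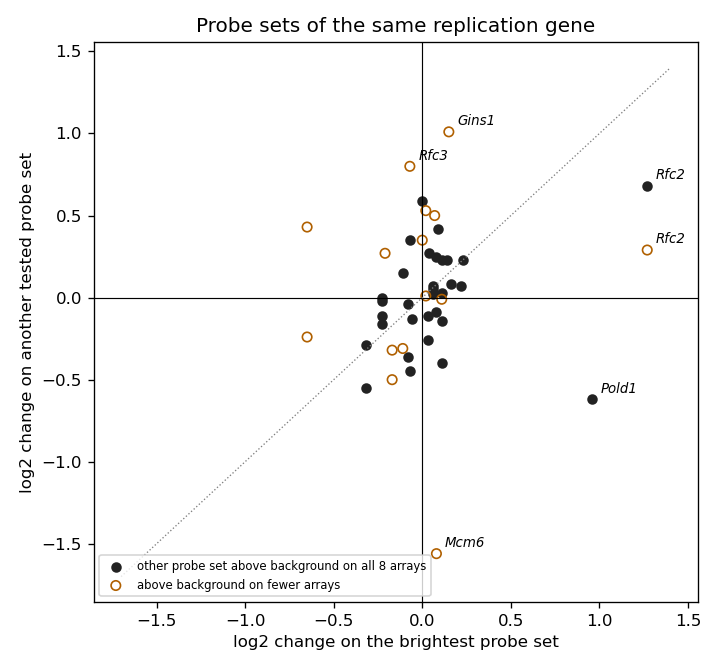
Log2 change on each further tested probe set of a replication gene (y axis) against the change on that gene's brightest probe set (x axis), with filled points for probe sets above background on all 8 arrays and open points for the others; the dotted line marks equal changes. Rfc2 lies to the right with 0.68 and 0.29 on the y axis, Pold1 falls below 0, and most points cluster near 0.

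Among lists of genes that work with the 44 members, none held a gene past the threshold. Of 28 tested accessory replication factors, 12 had positive changes and the median was -0.04. The smallest p values there were those of the clamp unloading factor Atad5 (-0.32, adjusted p = 0.281), Chtf18 (1.52, adjusted p = 0.314) and Dscc1 (0.68, adjusted p = 0.376), the last 2 being parts of an alternative clamp loader. The second Atad5 probe set had a change of 0.34 and the second of Dscc1 one of 0.16. Chtf18 had 6.55, 8.10, 8.04 and 7.84 in mutants, against 5.91, 4.92, 4.62 and 7.74 in controls, and was above background on 1 of 4 control arrays.

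Of 8 tested genes of chromatin assembly and DNA methylation upkeep, 3 had positive changes, with a median of -0.01. The histone mRNA binding protein Slbp had the smallest p (-0.19, SE 0.07, adjusted p = 0.292). Of 9 further nucleotide enzymes, 5 had positive changes (median 0.04), and Ctps, which makes cytidine nucleotides, had the smallest p (-0.14, adjusted p = 0.517). Of 18 genes of E2F factors, RB proteins and S phase cyclins, 11 had positive changes (median 0.13). E2f3 had a change of 0.17 (SE 0.09, adjusted p = 0.411), the cyclin Ccna2 of 0.14 (SE 0.07, adjusted p = 0.412) and E2f1 of 0.50 (SE 0.31, adjusted p = 0.508). Their second probe sets had changes of 0.08 for E2f3, -0.08 for Ccna2 and -0.61 for E2f1.

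Mitosis genes, the most similar gene group, had 12 of 25 positive changes and a median of -0.03, against 29 of 44 and 0.07 for the replication genes. The difference between the 2 lists was not tested. The checkpoint kinase Bub1b had a change of 0.55 (SE 0.16, adjusted p = 0.245), the transcription factor Foxm1 of 0.89 (SE 0.34, adjusted p = 0.332) and the kinase Plk1 of -0.49 (SE 0.21, adjusted p = 0.355). Second probe sets had changes of -0.14 for Bub1b and 0.36 for Foxm1. The brightest Foxm1 probe set was above background on 2 of 4 control arrays.

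Cell type markers differed between the groups as follows. Sums are given as the log2 of the summed signals of a list, in which the brightest gene weighs most. All 6 cushion mesenchyme markers had negative changes (median -0.68). Their sums spanned 14.13 to 14.46 in mutants and 14.68 to 14.75 in controls. All 5 epicardial markers had positive changes (median 0.56), with sums of 12.44 to 13.03 in mutants and 11.92 to 12.30 in controls. All 6 cardiomyocyte markers had positive changes (median 0.13), with sums of 16.03 to 16.08 in mutants and 15.89 to 15.97 in controls. The 5 measured erythroid markers had negative changes (median -0.20), with sums of 14.18 to 14.63 in mutants and 14.15 to 15.02 in controls. Of the 6 endothelial markers 4 had positive changes (median 0.41). Their sums, 12.53 to 12.64 in mutants and 12.80 to 13.04 in controls, mostly follow Tek, by far the brightest. Tek had means of 11.83 in mutants and 12.53 in controls, while Kdr, the next brightest, had 10 in mutants and 9.61 in controls. Tek, also named Tie2, is the gene whose promoter drives Cre in the mutants. It passed the test, with a change of -0.72 (limma adjusted p = 0.000171), and no other marker of any list did. Of 3 markers of canal muscle 2 had positive changes (median 0.07). Of 4 macrophage markers only Ptprc was tested, at -0.13, and Adgre1 was above background on 0 arrays. Csf1r, too dim to be tested, had 7.05, 7.20, 7.02 and 6.66 in mutants, against 6.61, 4.80, 6.26 and 5.36 in controls. It was above background on 4 mutant and 0 control arrays, and Cd68 on 2 mutant arrays and 1 control array. The part of these cell types in the values of Rfc2 and the other members was not tested. Summed in the same way, the 44 replication genes spanned 16.25 to 16.31 in mutants and 16.20 to 16.28 in controls.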

How the data were processed

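The authors deposited linear probe set intensities, for which the submitters' processing notes name MAS5; the version and background step are not given in the sources used here. The plain mean signal was 714.971 on every array, and array medians differed by up to 3.76 times. Depth does not apply to arrays, and the number of arrays limits the precision.

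Signals were taken as log2(signal + 16) and quantile normalized, since 2% trimmed means differed by 1.12 times. Left out were 64 array controls and the dimmest 40% of the remainder. Names came from the platform's annotation, checked against RefSeq by Entrez ID (34754 of 34958 single-symbol probe sets matched). A probe set counts as above background where its signal exceeds the 90th percentile over an array's 27 bacterial controls. The groups were compared by limma 3.58.1 in R 4.3.3, with array weights and eBayes (trend, robust), two-sided, with Benjamini-Hochberg adjustment over 27022 probe sets. The fit was tested on simulated data. Group means and SDs are unweighted, so they can depart from fitted changes.

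Members given with the value of every array were those with a called probe set, those without overlap between groups, the 2 of smallest p in each of 8 role groups, and further members by p up to 20 genes. Members and lists were chosen with earlier results of these data known. Some genes of the pathway and marker lists, Chaf1a, Ssrp1, Impdh2 and Ccnb1 among them, are not analysed here. Alternatives covered normalization, pseudocount, filter, array weights, arrays kept, replicate number, RNA integrity and the choice of probe set. The submitters report dropping 2 noisy control samples but do not name them, so all 4 were kept.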

Additional observations from a re-analysis of the deposited data

Results flagged for a closer look

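Among 58 groups of 4 arrays checked, covering the 20 members given by array and the means of the role groups, 2 had an array far from the other 3 (a gap to its neighbour past Dixon's 95% critical value), where chance gives about 1 in 20. Pole2 was high in mutant 2, at 9.42, against 8.96 to 8.98 in the other mutants. Lig1 was low in the same pool, at 8.78, against 9.36 to 9.46 in the other mutants.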

How the results depend on the processing

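Higher and lower probe sets over the whole array numbered 7 and 5, against 41 and 22 on the authors' scaling, 22 and 12 with a pseudocount of 64, 14 and 12 with no filter, 1 and 1 without controls 2 and 3, and 2 and 2 with the RNA integrity covariate. Without array weights 10 were lower. With single arrays left out the counts ran from 3 to 1416 higher and from 2 to 371 lower, with the largest without controls 1 and 4. Median-centred arrays, which moved the median of all probe sets to 1.13, gave 17318 and 1833, and 3257 and 6862 relative to that median, a test chosen after seeing the data.

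Of the 44 members, 1 passed. The count was 0 without array weights, without controls 2 and 3, with the covariate, with probe sets averaged and with probe sets of unshared sequence, and ran from 0 to 4 with single arrays left out. The 4 were Rfc2, Pold1, Pold2 and, at -1.14, Mcm10, without control 1, named after their values were seen. The counts over all probe sets were also largest without controls 1 and 4. With median-centred arrays 42 members passed, with a median change of 1.60. Over all 27022 probe sets, 17318 were then higher and 1833 lower. After the median change of all probe sets was taken off, 12 members passed (median 0.47), with 3257 probe sets higher and 6862 lower. In every other setting the members' median lay between 0.02 and 0.09. On the authors' scaling it was 0.07, while the median of all probe sets was -0.10.

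Positive members numbered 29 of 44, against 41 with median-centred arrays and 38 relative to the median. In the other settings they ran from 24, without control 2, to 31, with no filter. Among the 20 members given by array, those whose sign turned with median-centred arrays were Orc2 (1.47), Mcm3 (1.5), Pole2 (0.76), Rpa3 (1.63), Lig1 (1.07), Rrm1 (1.24) and Mcm4 (1.75). Of the same 20, relative to the median, Orc2 (0.33), Mcm3 (0.36), Rpa3 (0.49), Rrm1 (0.11) and Mcm4 (0.61) did. Mcm4 was at 0.05 on the authors' scaling, Rpa3 at 0.00 without array weights and at -0.12 to 0.04 with single arrays left out, Rrm1 at 0.00 without controls 2 and 3, and Orc3 at -0.02 with probe sets averaged. Probe sets of unshared sequence gave -0.62 for Pold1 and 0.00 for Mcm3. The cause was not tested.

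With the replicate number as a block, 23 probe sets were higher and 34 lower, and Rfc2 passed (1.2, adjusted p = 0.0385). Same-numbered pools showed little shared deviation, with correlations of -0.11, 0.01, -0.13 and 0.17 for numbers 1 to 4. With 1 correlation per number and unequal background among the control arrays, these values cannot decide whether the numbers pair the pools.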
